A study of Mus musculus with 96 samples.

Results

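Interferon-stimulated genes were followed across 7 mouse tissues as a set of 35 named genes, taken by gene symbol from a table of 56941 gene rows. All 35 were found, and all 35 passed the filter on low counts that left 20100 genes for testing. The libraries came from mice of 2 months: WT animals and 4 strains made reprogrammable by inducible reprogramming factors, called 4Fj, 4FsB, 4Fk and 4FsA. The labels give 3 samples for each genotype in spleen (4FsA and WT only), small intestine, liver, kidney, heart, brain and skeletal muscle, except 1 sample for 4Fj spleen and 2 for WT heart. The labels state neither whether the factors were switched on in any sample, nor the promoter that drives them, nor whether animals were pooled or gave more than 1 tissue. The count table names its 96 libraries by tissue and a running number and holds no genotype, so tissues were compared and strains were not. Every range within a tissue therefore mixes genotypes, and p-values measure only the spread between these libraries.

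Interferons are cytokines that cells release on sensing viral nucleic acid or on immune activation. Type I and type III interferons signal through JAK kinases to a transcription factor complex that includes STAT2 and IRF9 and binds the interferon-stimulated response element in gene promoters, whereas interferon gamma acts mainly through the gamma-activated site. Their target genes encode antiviral enzymes, nucleic acid sensors, GTPases that attack vacuoles of intracellular pathogens, and the transcription factors and brakes of the pathway itself, and many are kept at a low basal level in healthy tissue.

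Promoter sequences are shown for 6 members, because 5 of them hold a match of at least 1 of the response elements and the window of Cmpk2 holds none, and because the tissue values below separate these genes. RefSeq promoters of build GRCm38.p6, running from 250 bases before to 50 after a gene's start, were at hand for 25 of the 35 members, as 29 promoters. That build is older than GRCm39, which the submitters' processing notes name, so these positions do not apply to the authors' build. The motif GAAANNGAAA, the core of the interferon-stimulated response element, was searched on both strands, where it reads TTTCNNTTTC on the opposite one. It was present in 15 of the 29 member promoters (51.72%), against 3.44% of all 32851 promoters of the same length. The motif TTCNNNGAA, which has the form of a gamma-activated site and reads the same on both strands, was present in 8 of the 29 (27.59%), against 8.3% of all promoters. Overlapping matches of one motif were counted separately. Capitals mark the matches.
Isg15 (chr4:156200769-156201068, minus strand): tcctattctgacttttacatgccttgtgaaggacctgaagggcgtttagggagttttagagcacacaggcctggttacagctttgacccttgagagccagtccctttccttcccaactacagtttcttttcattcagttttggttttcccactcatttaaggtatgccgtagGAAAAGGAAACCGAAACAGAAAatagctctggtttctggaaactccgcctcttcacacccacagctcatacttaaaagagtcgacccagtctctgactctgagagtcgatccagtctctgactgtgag
Ifit1 (chr19:34640639-34640938, plus strand): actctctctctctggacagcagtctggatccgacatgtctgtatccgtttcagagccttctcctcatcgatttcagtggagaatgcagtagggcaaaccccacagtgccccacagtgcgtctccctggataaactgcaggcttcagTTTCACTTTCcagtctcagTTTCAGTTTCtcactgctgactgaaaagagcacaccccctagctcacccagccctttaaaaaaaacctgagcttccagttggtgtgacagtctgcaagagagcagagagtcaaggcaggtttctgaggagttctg
Igtp (chr11:58199306-58199605, plus strand): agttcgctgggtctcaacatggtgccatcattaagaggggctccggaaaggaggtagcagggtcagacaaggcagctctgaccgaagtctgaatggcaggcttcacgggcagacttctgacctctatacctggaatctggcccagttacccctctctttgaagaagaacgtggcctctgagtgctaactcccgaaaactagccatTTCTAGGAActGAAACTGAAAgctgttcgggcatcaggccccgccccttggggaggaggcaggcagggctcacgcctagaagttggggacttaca
Irf1 (chr11:53769764-53770063, plus strand): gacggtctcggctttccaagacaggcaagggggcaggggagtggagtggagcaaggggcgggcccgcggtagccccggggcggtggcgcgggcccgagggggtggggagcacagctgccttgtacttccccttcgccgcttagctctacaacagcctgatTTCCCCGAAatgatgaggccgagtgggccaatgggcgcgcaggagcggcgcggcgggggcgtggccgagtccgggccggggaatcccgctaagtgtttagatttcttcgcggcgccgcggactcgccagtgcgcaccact
Rsad2 (chr12:26456403-26456702, minus strand): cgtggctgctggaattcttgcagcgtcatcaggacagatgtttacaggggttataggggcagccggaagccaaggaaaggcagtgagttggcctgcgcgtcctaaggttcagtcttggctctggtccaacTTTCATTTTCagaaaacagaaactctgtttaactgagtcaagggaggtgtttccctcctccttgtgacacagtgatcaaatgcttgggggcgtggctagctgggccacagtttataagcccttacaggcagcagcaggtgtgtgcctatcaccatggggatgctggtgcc
Cmpk2 (chr12:26468965-26469264, plus strand): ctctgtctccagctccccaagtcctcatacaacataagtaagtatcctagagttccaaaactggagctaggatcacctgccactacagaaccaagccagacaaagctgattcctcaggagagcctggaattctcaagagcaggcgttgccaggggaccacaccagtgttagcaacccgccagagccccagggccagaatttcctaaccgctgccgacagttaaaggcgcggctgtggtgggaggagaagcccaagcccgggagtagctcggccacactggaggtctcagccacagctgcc
The Isg15 promoter held 3 overlapping matches of the response element motif within 1 run, and the Ifit1 promoter held 2 separate ones. The Igtp promoter held 1 match of each motif, side by side. Irf1 had 2 promoters in the table, and the one shown held a gamma-activated form and no response element motif. Rsad2 and Cmpk2 are neighbours on chromosome 12. The Rsad2 window held 1 response element match while the Cmpk2 window held no match of either motif. Cmpk2 was not alone in this, since 18 of the 25 members with a promoter held a match of either motif. Irf9, Irf7, Oasl1, Oasl2, Ifi44 and Xaf1 also held none. Of all 27025 genes with a promoter, 3495 held a match of either motif. A match is a description of the letters in the window, not a shown binding site.

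Total estimated counts per library ran from 6624474 to 17882603, so that 3 counts, the limit that a count of 0 allows, corresponded to 0.168 to 0.453 CPM (counts scaled to a library total of 1000000). This limit covers counting error only. The share of mitochondrially encoded counts differed between tissues, from 2.05% to 8.04% in spleen to 29.6% to 40.2% in heart, and 2 small intestine libraries, numbers 5 and 6, stood apart at 62.3% and 78.8%. The marker lists of small intestine, liver, kidney, heart, brain and skeletal muscle each had their highest median in the tissue they name. Those of B cells and T cells had it in spleen. The plasmacytoid dendritic cell list did not separate spleen from brain. Its lowest, median and highest sums were 100, 171 and 222 CPM in spleen and 134, 166 and 201 CPM in brain. Leukocyte markers (Ptprc, Coro1a and Laptm5 summed) were at 2917 to 4336 CPM in spleen, against 0.697 to 564 CPM in the other tissues. In whole tissue, more cells of a type and more RNA per cell cannot be told apart. In 7 libraries no count fell on the Y-linked gene Ddx3y, namely the library numbered 1 in spleen, liver, kidney, heart, brain and skeletal muscle, and brain library 2. The labels do not say whether libraries with the same number came from the same animal.

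Spleen had the highest median level for 24 of the 35 genes, small intestine for 6 (Irf7, Ifit1, Oas1a, Oasl1, Oasl2 and Ifih1), liver for 3 (Mx2, Iigp1 and Bst2), kidney for Ifi44 and brain for Cmpk2. The lowest median was in skeletal muscle for 18 genes and in brain for 17. Without small intestine libraries 5 and 6, small intestine also held the highest median of Oas3, Cmpk2 and Ifi35, so that the numbers were 22 in spleen, 9 in small intestine and 0 in brain. Leaving mitochondrially encoded genes out of the totals gave 21 in spleen, 7 in small intestine and 2 in heart, with the lowest median in brain for 19 genes and in skeletal muscle for 16. With TMM scaling over all tissues the numbers became 17 in spleen, 10 in small intestine, 5 in liver, 1 in kidney and 2 in heart for the highest median, and 28 in brain and 7 in skeletal muscle for the lowest. The level of the whole list in a library, taken as the mean log2(CPM + 1) of its 35 genes, was at 4.64, 5.05 and 5.44 in spleen (lowest, median and highest of 7 libraries). It was at 1.16, 3.99 and 4.96 in small intestine (n = 15), or 2.38, 4.17 and 4.96 without libraries 5 and 6. The same figures were 2.30, 3.39 and 4.76 in liver (n = 15), 1.80, 2.99 and 3.72 in kidney (n = 15), and 2.25, 2.66 and 3.98 in heart (n = 14). Brain, at 1.32, 1.68 and 2.37 (n = 15), and skeletal muscle, at 0.95, 1.62 and 2.48 (n = 15), covered nearly the same range. Neighbouring tissues in this order overlapped, including spleen and small intestine. With TMM scaling the median was 4.36 in spleen, 3.94 in small intestine and 3.88 in liver, and heart (2.78) came before kidney (2.65). Skeletal muscle, at 1.12, 2.04 and 3.52, then lay above brain, at 1.07, 1.39 and 1.97, with ranges that still overlapped.

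Each tissue was then set against the unweighted mean of the other 6 in one edgeR quasi-likelihood fit over all libraries. A gene was called at a Benjamini-Hochberg adjusted p under 0.05 over all genes tested and at least a 2-fold difference. The tissues share libraries across these contrasts, so the counts for different tissues are not independent of each other.

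**Figure D1:**
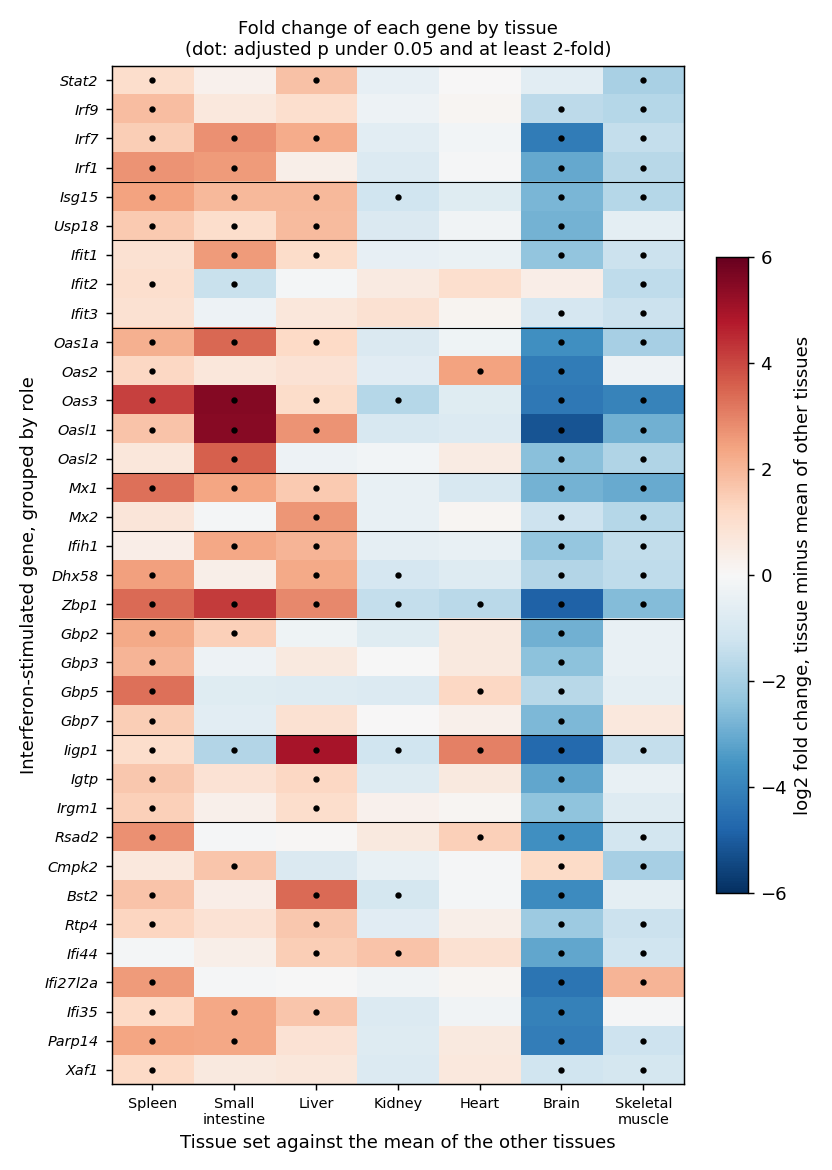
Log2 fold change of each of the 35 genes (rows, grouped by role) in each tissue relative to the mean of the other 6 tissues (columns), on a colour scale from -6 to 6, with dots on calls at adjusted p under 0.05 and at least 2-fold. Spleen, small intestine and liver hold 28, 16 and 20 genes called higher, and brain and skeletal muscle hold 32 and 24 called lower.

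In spleen, 28 of the 35 genes were higher and none was lower. Among all genes tested, 21.8% were called higher and 20.5% lower in spleen. The median log2 fold change was 1.55 for the members and -0.09 for all genes. By edgeR's test, no member was lower at an unadjusted p under 0.05 either, and DESeq2 called none lower. The calls covered all 4 transcription factors, both Isg15 and Usp18, all 4 guanylate-binding proteins and all 3 immunity-related GTPases, but 1 of 3 IFIT genes (Ifit2) and 1 of the 2 Mx genes. The calls of Ifit2 and Iigp1 were at the edge of the 2-fold limit (1.02 and 1.04) and were each lost in several alternatives, Ifit2 without spleen library 3, 4 or 7 and Iigp1 without library 1, 2 or 3. The 7 genes that were not called were Ifit1, Ifit3, Oasl2, Mx2, Ifih1, Cmpk2 and Ifi44. Irf9 and Gbp5 were above every library of every other tissue in all 7 spleen libraries. Such a lack of overlap held for 2 of 35 members and for 4.34% of all genes tested. These differences went with the leukocyte marker sums given above, and the part of those cells in them was not tested.

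In liver, 20 genes were higher and none was lower, against 18.8% and 21.5% of all genes tested. The median log2 fold change was 1.11 for the members and -0.11 for all genes. The 2 members Gbp5 and Cmpk2 were lower at an unadjusted p under 0.05 in edgeR's test, and DESeq2 called none lower. All 3 sensors, both Mx genes and all 3 immunity-related GTPases were higher, and none of the 4 guanylate-binding proteins was called. Leukocyte marker sums in liver were at 17.5 to 277 CPM.

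In small intestine, 16 genes were higher and 2 lower, against 22.2% and 19.7% of all genes tested. The median log2 fold change was 0.87 for the members and -0.08 for all genes. Of the OAS family, 4 of 5 members were higher. The lower genes were Ifit2 and Iigp1. Without libraries 5 and 6 the numbers were 18 and 2.

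In brain, 32 genes were lower and 1, Cmpk2, was higher, against 24.1% and 29.4% of all genes tested. The median log2 fold change was -2.83 for the members and -0.03 for all genes. Stat2 and Ifit2 were not called. In skeletal muscle, 24 genes were lower and 1, Ifi27l2a, was higher, against 26.2% and 18.8% of all genes tested. The median was -1.31 for the members and -0.31 for all genes, and none of the 4 guanylate-binding proteins was among the calls. Leukocyte marker sums were at 93.2 to 188 CPM in brain and at 5.16 to 19.4 CPM in skeletal muscle.

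Kidney and heart lay between these tissues. In kidney, 1 gene, Ifi44, was higher and 6 were lower (Isg15, Oas3, Dhx58, Zbp1, Iigp1 and Bst2), against 18.4% and 14% of all genes tested. The median log2 fold change in kidney was -0.66 for the members and -0.13 for all genes. In heart, 4 genes were higher (Oas2, Gbp5, Iigp1 and Rsad2) and 1, Zbp1, was lower, against 18% and 18.7% of all genes tested. The median in heart was 0.10 for the members and -0.22 for all genes. The share of members called higher was below the share of all genes in both tissues, and the share called lower was below it in heart. In kidney the share called lower lay near that of all genes. Its count of 6 fell to 5 by DESeq2 and to 4 without mitochondrially encoded genes.

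The transcription factors of the pathway were read first. Irf9, which binds DNA in the complex with STAT2, was at 83.7 to 134 CPM in the 7 spleen libraries with a median of 106 CPM. In the other tissues its medians were 3.91 to 27.0 CPM and its highest library, in liver, was at 67.0 CPM. The groups did not overlap, and the log2 fold change in spleen was 1.83 ± 0.22 (SE; adjusted p = 8.03e-12, edgeR's quasi-likelihood test with Benjamini-Hochberg adjustment). Stat2, its partner, had a lowest, median and highest of 73.6, 90.4 and 109 CPM in spleen, against 7.25, 38.2 and 253 CPM in liver and 1.64, 4.24 and 14.9 CPM in skeletal muscle. Liver library 13 held the highest Stat2 of all, above every spleen library. Stat2 was higher in liver by 1.74 ± 0.23 and in spleen by 1.06 ± 0.32 on the log2 scale (adjusted p = 1.89e-10 and 0.00377 in edgeR's test). The spleen call is at the edge of the 2-fold limit and is lost when mitochondrially encoded genes are left out, at 0.96. In brain, Stat2 had a median of 29.1 CPM, and its log2 fold change was -0.65 ± 0.27, under the 2-fold limit.

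Irf7, which drives interferon alpha production and is itself induced by interferon, had its highest median in small intestine. It was at 6.49, 79.2 and 196 CPM there (lowest, median and highest), against 55.5, 73.6 and 101 CPM in spleen, 15.9, 40.9 and 164 CPM in liver and 0.719, 2.28 and 3.67 CPM in brain. Small intestine libraries spanned the whole range of the spleen, on both sides of it, whereas every brain library lay below every liver library. The log2 fold change was 2.74 ± 0.25 in small intestine, 2.25 ± 0.25 in liver, 1.46 ± 0.34 in spleen and -4.22 ± 0.40 in brain (adjusted p = 1.03e-17, 2.39e-13, 0.000176 and 5.88e-17, edgeR's test).

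Irf1, a factor that interferon gamma induces, was at 119 to 236 CPM in spleen with a median of 206 CPM. Small intestine held 5.71, 118 and 244 CPM, while the median was 28.6 CPM in liver and 4.86 to 17.4 CPM in the other 4 tissues. It was thus high in 2 tissues rather than 3, and in liver its log2 fold change was 0.33 ± 0.20 (adjusted p = 0.150), against 2.67 ± 0.22 in spleen (adjusted p = 1.47e-19) and 2.58 ± 0.18 in small intestine (adjusted p = 1.81e-24, edgeR's test). No test of liver against either of those tissues alone was run.

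Isg15 encodes a ubiquitin-like modifier that interferon induces strongly, and Usp18 encodes the protease that removes it and also restrains the type I receptor. In the 7 spleen libraries, numbered 1, 2, 3, 4, 7, 8 and 9, Isg15 was at 25.5, 90.0, 17.7, 4.91, 27.8, 15.4 and 21.2 CPM. Library 2 stood far above the rest and library 4 far below. Medians were 10.2 CPM in small intestine and 8.85 CPM in liver, and they were 2.27 CPM in kidney, 1.64 CPM in heart, 0.822 CPM in brain and 0.524 CPM in skeletal muscle. The lowest spleen library was below the highest library of small intestine (39.5 CPM), liver (26.0 CPM), kidney (5.26 CPM) and heart (6.10 CPM). The log2 fold change was 2.43 ± 0.40 in spleen, 1.96 ± 0.32 in small intestine and 1.94 ± 0.32 in liver (adjusted p = 1.17e-07, 8.66e-08 and 1.33e-07, edgeR's test). It was -2.72 ± 0.45 in brain, -1.70 ± 0.43 in skeletal muscle and -1.19 ± 0.40 in kidney. Usp18 was called higher in the same 3 tissues, its median reaching 16.8 CPM in spleen, 8.01 CPM in small intestine and 9.06 CPM in liver, against 0.762 CPM in brain.

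**Figure D2:**
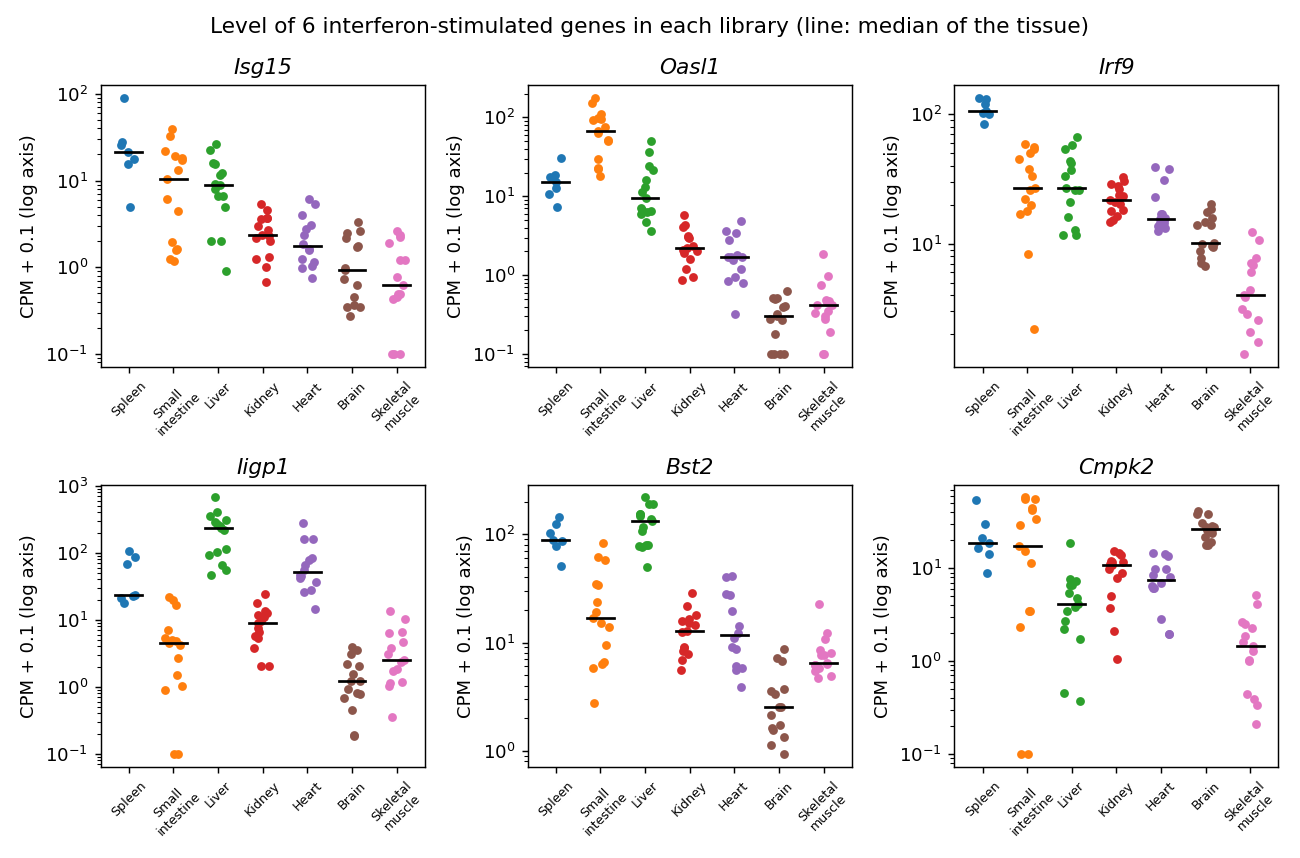
CPM of 6 genes in every library of the 7 tissues, on log axes after adding 0.1 CPM, with 1 point per library and a line at the tissue median. Oasl1 is highest in small intestine, Irf9 in spleen, and Iigp1 and Bst2 in liver, by the median. The Cmpk2 medians are 26.5 CPM in brain and 17.4 CPM in small intestine, or 29.1 CPM there without libraries 5 and 6. Isg15 overlaps between spleen, small intestine and liver.

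The IFIT proteins bind foreign RNA and block its translation. The 3 IFIT genes did not share a tissue order. Ifit1 had its highest median in small intestine, at 1.02, 20.3 and 123 CPM, against 7.92, 14.1 and 61.3 CPM in spleen, and it was higher there by 2.56 ± 0.33 on the log2 scale (adjusted p = 9.15e-11, edgeR's test). Ifit2 was at 0, 2.17 and 6.95 CPM in small intestine, against medians of 16.2 CPM in spleen, 8.85 CPM in brain, 8.52 CPM in heart and 7.43 CPM in kidney. It was lower in small intestine, with a log2 fold change of -1.31 ± 0.33 (adjusted p = 0.000339), the opposite direction to Ifit1. Ifit3 had medians of 27.3 CPM in spleen and 15.6 CPM in kidney. Ifit3 has a near-identical copy, so its counts are uncertain.

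The OAS genes encode enzymes that detect double-stranded RNA and make the activator of RNase L, and the 2 OASL proteins are related but differ in that activity. Oas3 and Oasl1 had the largest fold changes of the members in small intestine, followed by the sensor gene Zbp1 and then Oasl2 and Oas1a, while Oas2 was not called there (0.68 ± 0.36). Oasl1 was at 18.1, 68.1 and 177 CPM in small intestine, against 7.28, 15.3 and 30.2 CPM in spleen, 3.54, 9.42 and 50.3 CPM in liver and medians of 0.208 to 2.12 CPM in the other 4 tissues. Every small intestine library, including numbers 5 and 6, was above every kidney, heart, brain and skeletal muscle library. Its log2 fold change was 5.48 ± 0.25 in small intestine and 2.68 ± 0.24 in liver, and -5.19 ± 0.42 in brain (adjusted p = 4.89e-37, 6.03e-18 and 2.76e-20, edgeR's test). The brain median of Oasl1, 0.208 CPM, lay within the 3-count level, so the size of its fold change there depends on a few reads.

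Oas3 was at 0.833, 14.7 and 110 CPM in small intestine and at 9.74, 29.1 and 44.6 CPM in spleen, against medians of 1.44 CPM in liver and 0.0793 to 0.665 CPM in the other tissues. Without libraries 5 and 6 its small intestine median was 44.2 CPM, above that of spleen. Its medians in brain and skeletal muscle were under the level of 3 counts, so the size of its fold changes there depends on the counts of a few reads. The log2 fold change was 5.50 ± 0.30 in small intestine and 4.11 ± 0.33 in spleen (adjusted p = 3.47e-31 and 2.88e-20, edgeR's test). Oasl2 was at 4.18, 78.3 and 155 CPM in small intestine, against a median of 23.0 CPM in spleen and 1.20 to 8.39 CPM elsewhere, and was higher there by 3.58 ± 0.24. It was not called in spleen (0.69 ± 0.37) or liver (-0.28 ± 0.30). Oas1a, whose reads can be shared with close copies in its cluster, was higher in small intestine by 3.46 ± 0.28.

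Oas2 took another course, with its largest positive fold change in heart. In heart it was at 1.97, 11.1 and 62.3 CPM, against 7.01, 12.5 and 43.5 CPM in spleen, 0.571, 2.40 and 36.8 CPM in liver and medians of 0.454 to 4.59 CPM elsewhere. Its log2 fold change in heart was 2.41 ± 0.34 (adjusted p = 1.32e-09, edgeR's test). Heart libraries 13 and 14, at 62.3 and 59.2 CPM, lay above every library of the other tissues. The spleen call of Oas2, 1.22 ± 0.47, is lost without spleen library 7 (0.79, adjusted p = 0.199).

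Mx1 and Mx2 encode dynamin-like GTPases that block viruses in the nucleus or cytoplasm, and the pair differed by tissue. Mx1 was at 6.25, 14.03 and 23.5 CPM in spleen, against medians of 4.08 CPM in small intestine, 1.14 CPM in liver and 0 CPM in skeletal muscle, and was higher in spleen by 3.29 ± 0.40 (adjusted p = 1.01e-11, edgeR's test). Mx2 was at 2.93, 6.52 and 20.4 CPM in liver, against 2.70, 3.99 and 7.95 CPM in spleen and medians of 0.439 to 1.81 CPM elsewhere. It was higher in liver by 2.67 ± 0.28 (adjusted p = 1.95e-14) and was not called in spleen (0.71 ± 0.42).

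Of the nucleic acid sensors, Zbp1, which senses Z-form nucleic acid and can start necroptosis, separated the tissues most. It was at 38.2, 45.6 and 61.7 CPM in spleen and at 1.39, 34.9 and 151 CPM in small intestine, against 4.23, 9.62 and 54.6 CPM in liver. Kidney and heart had medians of 1.66 and 1.23 CPM, and brain and skeletal muscle had 0.103 and 0.247 CPM. Zbp1 was called in all 7 contrasts, as was Iigp1. Zbp1 was higher in small intestine (4.19 ± 0.28), spleen (3.38 ± 0.33) and liver (2.88 ± 0.28), and lower in kidney, heart, brain and skeletal muscle (-1.43 ± 0.38, -1.60 ± 0.39, -4.84 ± 0.48 and -2.59 ± 0.43). Its medians in brain and skeletal muscle lay under or within the 3-count level of 0.168 to 0.453 CPM. The size of both fold changes there depends on the counts of a few reads. Ifih1, which encodes the RNA sensor MDA5, was at 3.06, 41.9 and 83.3 CPM in small intestine and at 10.6, 24.4 and 49.4 CPM in liver, against 7.15, 21.4 and 35.4 CPM in spleen. It was higher in small intestine and liver (2.34 ± 0.18 and 2.03 ± 0.18) and not called in spleen (0.41 ± 0.27). Dhx58, whose product LGP2 regulates MDA5, was higher in spleen and liver (2.44 ± 0.30 and 2.27 ± 0.24) and not called in small intestine (0.37 ± 0.27).

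The guanylate-binding proteins are induced mainly by interferon gamma and act on pathogen vacuoles and inflammasomes. Gbp5 was at 23.2, 31.1 and 65.7 CPM in spleen, against medians of 0.701 to 4.83 CPM in the other tissues, whose highest library was at 12.6 CPM, in heart. It was higher in spleen by 3.33 ± 0.34 and in heart by 1.25 ± 0.32 (adjusted p = 1.53e-14 and 0.000524, edgeR's test). Gbp2 was at 26.8, 55.6 and 112 CPM in spleen and at 1.11, 17.3 and 67.2 CPM in small intestine, against 2.28, 3.77 and 32.0 CPM in liver. In liver the fold changes of Gbp2, Gbp3, Gbp5 and Gbp7 were -0.27, 0.56, -0.78 and 0.93 on the log2 scale. Gbp3 and Gbp7 lie in a cluster of close copies, so reads may be split between them.

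The immunity-related GTPases guard against vacuolar parasites, again mainly under interferon gamma. Iigp1 departed from the rest of the set. It was at 46.2, 231 and 667 CPM in liver and at 14.4, 51.1 and 282 CPM in heart, against 17.7, 23.2 and 106 CPM in spleen, 1.91, 8.75 and 24.4 CPM in kidney and medians of 1.10 to 4.34 CPM elsewhere. All 15 liver libraries were above every kidney, small intestine, brain and skeletal muscle library. The log2 fold change of Iigp1 was 4.94 ± 0.31 in liver and 3.03 ± 0.31 in heart (adjusted p = 1.22e-26 and 4.89e-15, edgeR's test), and in small intestine it was -1.74 ± 0.41. Its spleen call, 1.04 ± 0.44, is lost without spleen library 1, 2 or 3, where it falls to 0.67 at the lowest. Igtp and Irgm1 were both highest in spleen, at medians of 79.8 and 89.8 CPM, against 26.8 and 32.7 CPM in liver.

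Among the other effectors, Bst2, also called tetherin because it holds budding virus at the cell surface, was highest in liver. It was at 50.2, 132 and 220 CPM there, against 50.5, 89.4 and 144 CPM in spleen, 2.63, 16.9 and 83.6 CPM in small intestine and 0.834, 2.42 and 8.67 CPM in brain. Its log2 fold change was 3.39 ± 0.21 in liver and 1.73 ± 0.29 in spleen (adjusted p = 7.34e-27 and 3.77e-07, edgeR's test). Rsad2, which encodes the antiviral enzyme viperin, was at 3.30, 17.8 and 249 CPM in spleen, with 249 CPM in library 2 and 86.4 CPM in library 1, against at most 29.4 CPM in kidney and 26.8 CPM in heart. It was higher in spleen by 2.73 ± 0.35 and in heart by 1.42 ± 0.31. Its neighbour Cmpk2, a mitochondrial nucleotide kinase, had the opposite tissue pattern in brain.

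Cmpk2 was at 17.8, 26.5 and 41.6 CPM in brain, against 8.90, 18.6 and 54.4 CPM in spleen, 0, 17.4 and 57.9 CPM in small intestine and medians of 1.35 to 10.8 CPM in the other 4 tissues. Rsad2 in brain was at 0.184, 1.24 and 1.89 CPM. The log2 fold change in brain was 1.14 ± 0.32 for Cmpk2 and -3.69 ± 0.45 for Rsad2 (adjusted p = 0.000938 and 3.17e-12, edgeR's test). With TMM scaling over all tissues, or without small intestine libraries 5 and 6 (29.1 CPM), small intestine and not brain held the highest Cmpk2 median. The call of Cmpk2 in brain held in every alternative fit. Ifi27l2a, an interferon-induced gene, was at 3.03, 17.7 and 51.7 CPM in skeletal muscle and was higher there by 2.02 ± 0.35 (adjusted p = 3.22e-07), although its median in spleen was 66.2 CPM. Ifi44, also interferon-induced, was at 2.01, 7.38 and 12.5 CPM in kidney, against medians of 3.71 CPM in spleen and 3.55 CPM in liver, and was higher in kidney by 1.71 ± 0.34 (adjusted p = 1.06e-05). Parp14, an ADP-ribosyltransferase, was higher in spleen and small intestine (2.37 ± 0.25 and 2.30 ± 0.20), and Ifi35 was higher in small intestine, liver and spleen (2.32 ± 0.17, 1.64 ± 0.18 and 1.19 ± 0.25).

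Libraries of one tissue also differed, and often in many members at once. How many of all genes lay above or below a tissue median in a library was not counted. In liver the ratio of the highest library to the median was largest for Ifit2 (28.2 against 1.83 CPM, 15.4 times), Oas2 (36.8 against 2.40 CPM, 15.3 times), Ifi27l2a (37.2 against 2.88 CPM, 12.9 times), Mx1 (12.7 against 1.14 CPM, 11.1 times) and Gbp2 (32.0 against 3.77 CPM, 8.49 times). The highest library was number 2 for Ifit2 and Gbp2, number 13 for Oas2 and Mx1 and number 7 for Ifi27l2a. The second highest were at 10.0, 14.9, 12.3, 5.54 and 19.3 CPM in the same order of genes. Liver library 2 held the highest value for 14 of the 35 genes and library 9 for 11, and library 12 held the lowest for 16. Leukocyte marker sums were 277 CPM in library 2 and 54.3 CPM in library 9, against a liver median of 40.9 CPM.

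In heart, libraries 13, 14 and 15 each had 34 of 35 members above the tissue median, and library 7 also had 34. List levels were 3.92, 3.98, 3.64 and 3.64 in these 4 libraries, against 2.25 to 3.06 in the other 10. Library 7 differed from the other 3 in which genes were highest. Its Igtp was at 126 CPM, 10.1 times the heart median of 12.4 CPM, with the next library at 33.1 CPM, and its Iigp1 was at 282 CPM, with the next at 161 CPM. Oas2 and Stat2 peaked in libraries 13 and 14. Leukocyte marker sums in libraries 7, 13, 14 and 15 were 45.3, 54.0, 47.6 and 48.6 CPM, within the heart range of 19.8 to 77.4 CPM.

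**Figure D3:**
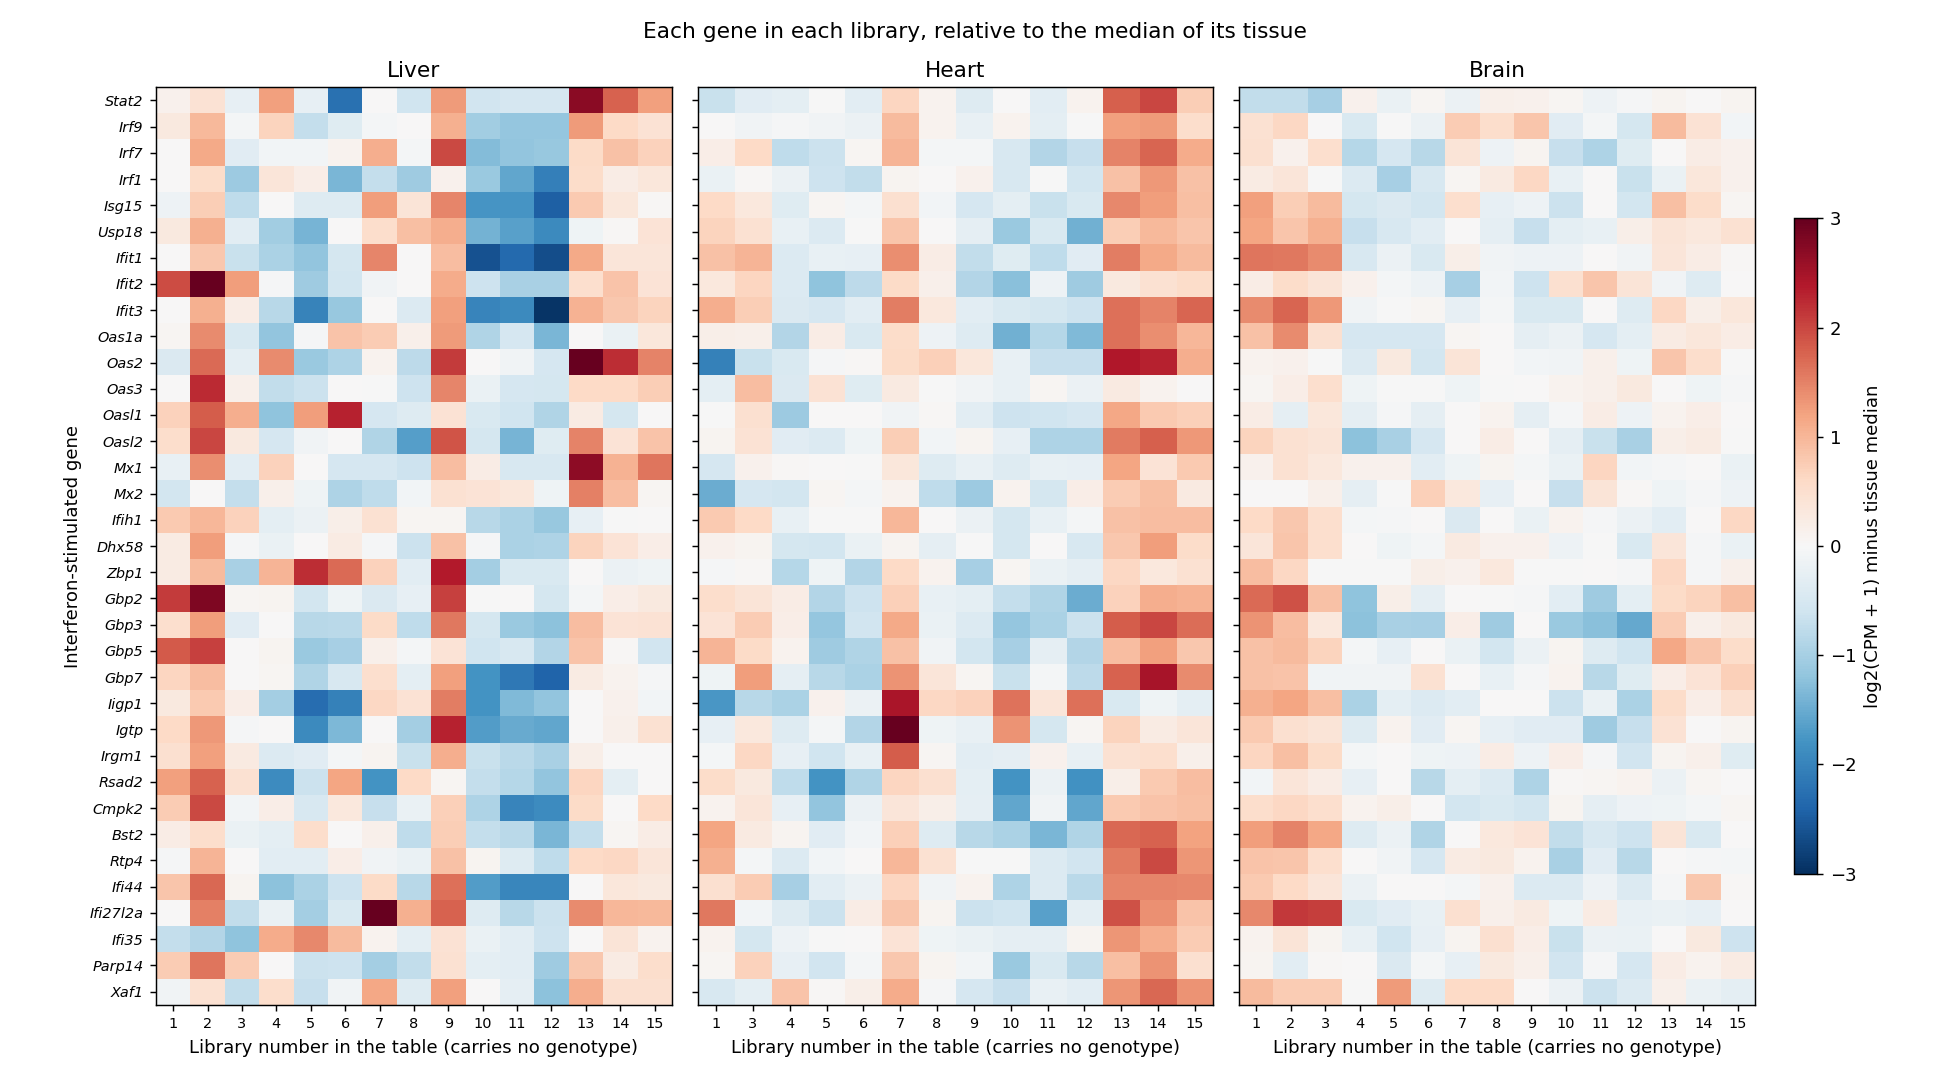
Log2(CPM + 1) of each of the 35 genes (rows) in each library (columns, by the number in the table, which carries no genotype) minus the median of the tissue, for liver, heart and brain, on a colour scale from -3 to 3. Liver libraries 10, 11 and 12 are low, heart libraries 7, 13, 14 and 15 are high, and brain libraries 1, 2 and 3 are high, across most genes.

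In brain, libraries 1, 2 and 3 had list levels of 2.34, 2.37 and 2.16, against 1.32 to 1.93 in the other 12, and had 32, 32 and 29 members above the median. The widest genes were Gbp2 (8.50 CPM in library 2, against a median of 1.52 CPM), Ifit1 (6.99 CPM in library 1, against 1.64 CPM) and Ifit3 (19.4 CPM in library 2, against 5.11 CPM). Stat2 went the other way, with 17.0, 17.0 and 14.1 CPM in libraries 1, 2 and 3, the 3 lowest of the tissue. Leukocyte marker sums in these libraries were 188, 172 and 164 CPM, against 93.2 to 167 CPM in the other 12, and libraries 1 and 2 are among those with no Ddx3y count. The part of either in these levels was not tested.

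In kidney, library 1 had the highest list level (3.72), held the highest value for 16 genes and had a leukocyte marker sum of 137 CPM, against a tissue median of 30.5 CPM. With TMM scaling its list level was 3.07, below libraries 9 (3.54) and 13 (3.18). Without mitochondrially encoded genes it was 3.88, again below libraries 9 (4.06) and 13 (3.91). Library 1 also has no Ddx3y count and an Xist level of 1117 CPM. Gbp3 was at 39.6 CPM in that library, against a kidney median of 7.68 CPM and a second highest of 20.4 CPM. Kidney library 5 was at the other end, with a list level of 1.80 and the lowest value for 21 genes. In skeletal muscle, library 9 had the highest list level (2.48) and the highest value for 13 genes. Its Gbp2 was at 21.6 CPM, 6.96 times the median of 3.11 CPM, and its mitochondrial share of 43.4% was the highest of that tissue. In small intestine, library 7 had the highest list level (4.96) with Irgm1 at 155 CPM, against a median of 16.6 CPM and a second highest of 61.9 CPM.

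The levels were then set beside Pou5f1, which encodes the reprogramming factor Oct4 and is at or near 0 in adult somatic tissue. Which libraries belong to which strain is not known here, so the values are given library by library, without a test and without averages over libraries chosen by Pou5f1. In liver, libraries 10, 11 and 12 had Pou5f1 at 63.4, 83.4 and 43.6 CPM and the 3 lowest list levels of the 15, at 2.71, 2.54 and 2.30. Isg15 was at 1.90, 1.89 and 0.795 CPM and Ifit1 at 0.776, 1.17 and 0.706 CPM in them, against liver medians of 8.85 and 9.83 CPM. Liver library 4, which had the highest Pou5f1 of all libraries at 199 CPM, differed from these 3. Its list level was 3.37, close to the liver median of 3.39, with Isg15 at 8.85 CPM and Stat2 at 90.9 CPM. With TMM scaling the level of library 4 was 3.45, below a liver median of 3.88. Without mitochondrially encoded genes it was 3.61, the liver median in that setting. By CPM, 18 members were below and 14 above the liver median in library 4, whereas 30, 33 and 35 members were below it in libraries 10, 11 and 12. The same counts over all genes were not taken. Liver libraries 1, 2 and 3, with Pou5f1 at 0, had list levels of 3.88, 4.76 and 3.39.

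In small intestine, libraries 10, 11 and 12 had Pou5f1 at 75.5, 122 and 139 CPM and list levels of 2.90, 2.38 and 2.87, lower than every other library of the tissue except numbers 5 and 6. Irf7 was at 13.6, 7.59 and 6.49 CPM and Isg15 at 1.14, 1.48 and 1.50 CPM in them, against medians of 79.2 and 10.2 CPM. Their leukocyte marker sums were 105, 78.7 and 113 CPM, above the small intestine median of 43.3 CPM, and their mitochondrial shares were 4.46%, 4.32% and 4.71%, the 3 lowest of the tissue. Libraries 4, 7 and 9, with Pou5f1 at 3.82, 5.82 and 9.30 CPM, had list levels of 4.22, 4.96 and 4.17, above the median of 3.99. Library 8, at 19.5 CPM, had 3.33. Libraries with Pou5f1 at 0 ranged from 3.41 to 4.62. The low position of libraries 10, 11 and 12 in liver and small intestine held with TMM scaling and without mitochondrially encoded genes.

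**Figure D4:**
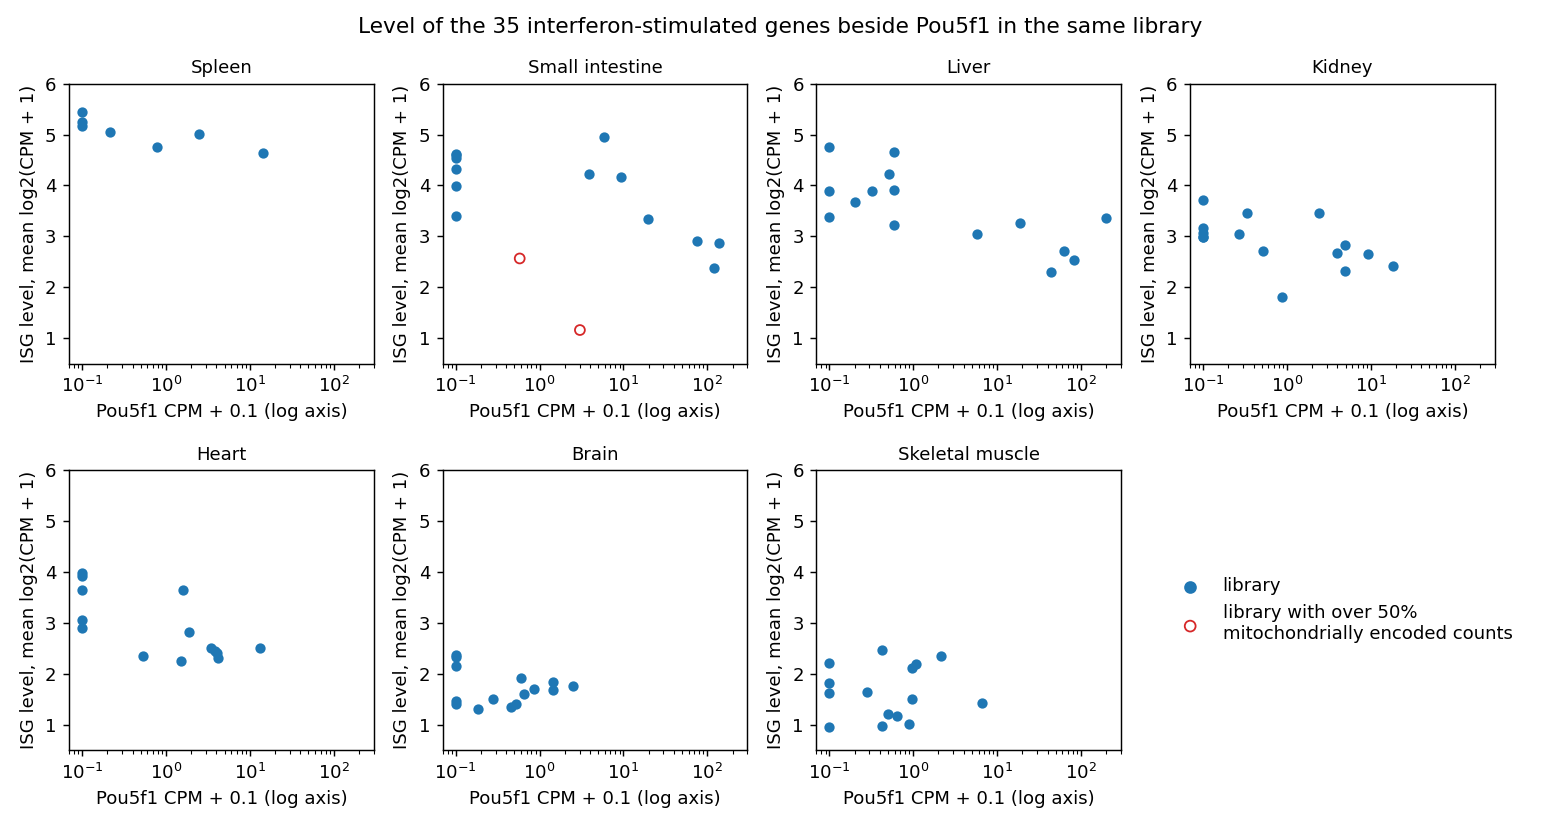
List level of the 35 genes (mean log2(CPM + 1)) in each library, by the Pou5f1 level of the same library (CPM + 0.1, log axis), in 7 panels by tissue, with open red circles for the 2 small intestine libraries over 50% mitochondrially encoded counts. Liver and small intestine each hold 3 libraries above 40 CPM of Pou5f1 with low list levels, while the liver library at 199 CPM lies near the liver median.

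In the other tissues Pou5f1 was lower, at 18.5 CPM or less. In spleen, library 4 had the highest Pou5f1, at 14.3 CPM, and the lowest list level, at 4.64, with the lowest value for 15 genes, and its leukocyte marker sum of 2917 CPM was the lowest of the 7. In kidney, library 4 had the highest Pou5f1, at 18.5 CPM, and a list level of 2.41. The next highest, libraries 11, 6, 12 and 7 at 9.11, 4.88, 4.79 and 3.89 CPM, had list levels of 2.65, 2.31, 2.84 and 2.66, so all 5 were below the kidney median of 2.99. Library 13, next by Pou5f1 at 2.31 CPM, had a list level of 3.46, above that median. The lowest level, 1.80, was in library 5 at 0.763 CPM. In heart, library 6 had the highest Pou5f1, at 13.01 CPM, and a list level of 2.50, and libraries 10, 5, 4 and 9, at 4.11, 3.96, 3.70 and 3.38 CPM, had 2.30, 2.41, 2.45 and 2.51, all below the heart median of 2.66. The heart libraries with Pou5f1 at 0 had list levels of 2.91 to 3.98, and library 7, at 1.52 CPM, had 3.64. Library 8, at 1.77 CPM, had 2.82. The lowest level of the tissue, 2.25, was in library 12 at 1.40 CPM, and library 11, at 0.440 CPM, had 2.35. In skeletal muscle, library 12 had the highest Pou5f1, at 6.45 CPM, and a list level of 1.42. That level lay within the range of 0.95 to 2.22 of libraries at 0. Libraries 14 and 13, next by Pou5f1 at 2.03 and 0.966 CPM, had list levels of 2.35 and 2.20. In brain, Pou5f1 reached at most 2.44 CPM, in library 15, which had a list level of 1.77, while the 5 libraries at 0 ranged from 1.41 to 2.37.

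The genes upstream of this set were measured from a list of the pathway's ligands, receptors, kinases, sensors and brakes. None of the 10 interferon ligand genes passed the filter on low counts. Interferon gamma (Ifng) was at 0.364, 2.22 and 4.85 CPM in spleen, and its median was 0 CPM in all other tissues. Interferon beta (Ifnb1) was at 0.184 CPM or less in every library. Of 9 receptor and kinase genes, 7 were higher in spleen (21.8% of all genes tested), 5 in small intestine (22.2%) and 3 in heart (18%), and none was lower in these tissues. In brain 5 were lower (24.1%) and in skeletal muscle 4 (26.2%), with none higher. Liver had 1 higher (Ifnar2, against 18.8% of all genes) and 2 lower (Ifngr2 and Jak2, against 21.5%). Kidney had 1 higher (Ifnlr1, against 18.4%) and 1 lower (Ifngr2, against 14%). With 9 genes, these few calls in liver and kidney do not set the list apart from all genes. Ifnlr1, the specific chain of the type III interferon receptor, was at 0, 16.8 and 39.2 CPM in small intestine, against 2.86, 5.90 and 11.03 CPM in spleen and medians of 0 to 4.98 CPM elsewhere. It was higher in small intestine by 4.33 ± 0.26 (adjusted p = 3.52e-28, edgeR's test), and in skeletal muscle 14 of 15 libraries had no count.

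Of 10 sensors and adaptors, 7 were higher in spleen, 5 in small intestine and 3 in liver, against 21.8%, 22.2% and 18.8% of all genes tested. In skeletal muscle 7 were lower and in brain 5, against 26.2% and 24.1%. The other calls were Tlr7, lower in small intestine, Ikbke and Cgas, lower in kidney, and Ikbke, lower in heart. The shares of all genes called lower there were 19.7%, 14% and 18.7%. Ikbke, a kinase that activates the interferon factors IRF3 and IRF7, was called in all 7 tissues, higher in spleen, liver and small intestine (3.34 ± 0.27, 2.64 ± 0.23 and 2.59 ± 0.23) and lower in kidney, heart, brain and skeletal muscle. Of 5 negative regulators, Socs1 and Ptpn6 were higher in spleen, Socs1 and Socs3 in small intestine and Socs3 and Ptpn6 in liver. Of all genes tested, 21.8%, 22.2% and 18.8% were called higher in these tissues, and a list of 5 is too short to set against them. In brain 4 were lower (Socs1, Socs3, Ptpn2 and Ptpn6), against 24.1% of all genes tested. Lower calls elsewhere were Socs1 and Ptpn6 in heart, Socs3 and Ptpn6 in skeletal muscle and Socs1 in kidney, against 18.7%, 26.2% and 14% of all genes.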

How the data were processed

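Total RNA from frozen tissue was sequenced as cDNA libraries, per the labels' protocols. The deposited table holds estimated counts, with 26.8% of nonzero entries more than 1e-06 away from a whole number. The submitters' processing notes name GRCm39 and DESeq2. The aligner, counter, annotation and strand setting are not given in the sources at hand, so overlapping genes and close copies are uncertain. The authors' normalised table was not used. Gene rows without a name (310) held at most 0.113% of a library's counts and stayed in the totals only.

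For CPM, each estimated count was divided by its column sum and multiplied by 1000000. Columns were assigned to tissues by the code in their names. The names hold no genotype, and no label ties their running numbers to samples or animals, so genotypes and pairs of samples were not used. No 2 libraries of a tissue held identical values. Estimated counts were rounded to whole numbers for edgeR 4.0.16 (R 4.3.3): filterByExpr, TMM scaling, a quasi-likelihood F test with tissue as the only term over 96 libraries, and Benjamini-Hochberg adjustment over 20100 genes. The standard error is the absolute log2 fold change divided by the square root of F. The fit was checked on simulated counts that shared 1 mean across tissues and 1 fixed spread, apart from genes changed in spleen. At adjusted p under 0.05 and without the fold limit, it called 55% of 100 genes changed 2-fold. It called 100% of 100 genes changed 4-fold. A true difference near 2-fold can therefore go uncalled. Alternatives were DESeq2 1.42.0, its size factors, no filter, no fold limit, leaving out mitochondrially encoded genes, the 2 small intestine libraries over 50% mitochondrial counts or single spleen libraries, TMM scaling of the levels over all tissues, a pseudocount of 0.5 in place of 1 CPM, and, chosen after seeing the data, leaving out the 7 libraries with no Ddx3y count and counting highest medians without the 2 small intestine libraries. Levels used Python 3.11.15, numpy 2.4.6 and pandas 2.3.3. The 35 members and the pathway and marker lists were chosen with earlier results of these data known. Members were chosen for description by rule. These were the 5 called members with the largest fold change per tissue, and Isg15, Irf7, Irf1 and Stat2. Members with a median of 1 CPM or more that had the largest ratio of highest library to median were also chosen. Not every value or fold change of the chosen members is printed, and Ifi27l2a in brain is 1 that is left out. Other members were named after their values were seen.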

Additional observations from a re-analysis of the deposited data

Results flagged for a closer look

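A single library's distance was tested in spleen only (7 libraries). The limits of Dixon's test that were used did not extend to the larger numbers of libraries in the other tissues. In spleen, 4 of 35 members had a highest library that stood apart from the other 6 by more than Dixon's limit. Chance alone flags about 1 in 20 groups of independent, normally distributed values. The 35 genes share their libraries, whose genotypes are not known here. The limit was applied to CPM. On the log2(CPM + 1) scale none of the 4 passed it, with gaps of 0.26 to 0.49 of the range against a limit of 0.568. Isg15 was at 90.0 CPM in library 2, with the next library at 27.8 CPM. Rsad2 was at 249.1 CPM in the same library, with the next at 86.4 CPM. Ifit1 was at 61.3 CPM in library 7, with the next at 28.6 CPM. Xaf1, an interferon-induced gene linked to apoptosis, was at 39.6 CPM in library 7, with the next at 25.3 CPM. Libraries 2 and 7 also had the highest list levels of the 7, at 5.44 and 5.25. Their leukocyte marker sums, 3310 and 3942 CPM, lay within the range of the others, 2917 to 4336 CPM.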

How the results depend on the processing

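No called member changed direction in any alternative fit. Without the 2-fold limit, 1 member was lower in liver, 2 were higher and 15 lower in kidney, and 8 were higher and 3 lower in heart, so the main counts in these tissues depend on that limit. Without the 2 small intestine libraries over 50% mitochondrial counts, 2 members were lower in heart, since Mx1 passed the limit. The other counts of members stayed within 1.5 times the main count in all alternatives. Leaving out each spleen library in turn gave 25 to 28 members higher and 0 lower in spleen. Oas2 lost its spleen call without library 7 or 8, Xaf1 without 7, Ifit2 without 3, 4 or 7, and Iigp1 without 1, 2 or 3, while Ifit3 gained one without library 8. Spleen Stat2 also lost its call without the libraries that have no Ddx3y count (0.95). The median spleen list level was 4.36 with TMM scaling over all tissues, and the median brain list level was 1.32 with a pseudocount of 0.5 CPM. Another scaling shifted the median fold change of all genes by more than 0.1 on the log2 scale, as with DESeq2's size factors in small intestine (-0.10) and brain (0.11). No paired analysis was possible because no label ties the running numbers in the column names to samples or animals. Levels under 0.453 CPM rest on 3 counts or fewer in the shallowest library.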
